A study of Sus scrofa with 12 samples.

Results

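The fresh parthenogenetic blastocyst was described from 3 libraries of pig (Sus scrofa) embryos, chosen because their labels give the treatment as control. They were 3 of the 12 samples of the study, of which 11 had a column of values. The libraries are called control 1, control 2 and control 3. No vitrified library was used, so every level, rank and spread given belongs to fresh embryos. The labels name the tissue as blastocyst and the treatment as control, and the design text calls the group fresh. They give no day of culture, breed or donor age. All groups of the study were parthenogenetically activated, meaning that an egg without sperm was stimulated to divide. Smart-Seq2, which copies polyadenylated RNA from very small inputs with an oligo-dT primer, was used with 22 cycles of preamplification, followed by paired-end sequencing. The extraction protocol describes sorted single cells, while the sample labels name the blastocyst. Whether a library was 1 cell or 1 embryo is not stated, nor whether the libraries came from separate embryos. The spread between them may therefore be technical.

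A blastocyst is a hollow embryo. Its outer layer, the trophectoderm, is an epithelium that pumps fluid into the cavity and later builds the placenta. Inside lies the inner cell mass, which divides into the epiblast, the source of the body, and the hypoblast, the source of the yolk sac lining. In a parthenote both genome copies are maternal, so genes that are read only from the paternal copy have no active copy if their imprint is intact. Pig embryos are known for a large store of lipid droplets.

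Levels were the deposited FPKM, in which fragments are divided by gene length and library size, so they compare genes per length. The 3 values after a gene are those of controls 1, 2 and 3 in that order. Sequencing depth is unknown, since the table holds no counts, and no interval is given for any level. Of 31781 gene identifiers (IDs), 15347 carried a symbol. An FPKM of at least 1 was reached by 7589, 6761 and 7000 IDs, a mean of 7117 ± 426 (SD, n = 3). In all 3 libraries together 6051 IDs reached it, of which 5390 had a symbol, and 12763 IDs were at 0 in all 3.

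Control 1 stood apart from the other libraries. Over the 8294 IDs with an FPKM of at least 1 in any library, Pearson's r of log2(FPKM + 1) was 0.910 between controls 1 and 2, 0.916 between controls 1 and 3 and 0.975 between controls 2 and 3. These are correlations across genes, which are not independent replicates. Among the 1799 IDs with a mean FPKM of at least 20, controls 1 and 2 differed at least 2-fold in 460 (25.6%), controls 1 and 3 in 399 (22.2%) and controls 2 and 3 in 66 (3.67%). Control 1 alone reached an FPKM of 1 in 888 IDs, against 182 for control 2 alone and 219 for control 3 alone. No 2 libraries held identical values. Results that rest on control 1 are given with and without it.

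To see how far each library lay from the others, IDs were counted in which it was below both others, or above both, by at least 1 on the log2(FPKM + 1) scale. This was done over the 3879 IDs with a mean FPKM of at least 5. Control 1 lay below both others in 248 (6.39%) and above both in 436 (11.2%). For control 2 these were 65 (1.68%) and 30 (0.773%), and for control 3 they were 35 (0.902%) and 23 (0.593%). The median ID of control 1 lay 0.28 above the mean of the other libraries on this scale. That shift was 0.48 with FPKM scaled to the total outside the mitochondrial genome, 0.35 as TPM and 0.04 after quantile normalization. The split of IDs below and above followed the scaling, with 183 below and 674 above, 239 below and 544 above, and 368 below and 234 above in that order. Where a gene is said to be lowest or highest in control 1, it was so under all 4 scalings unless an exception is named.

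**Figure D1:**
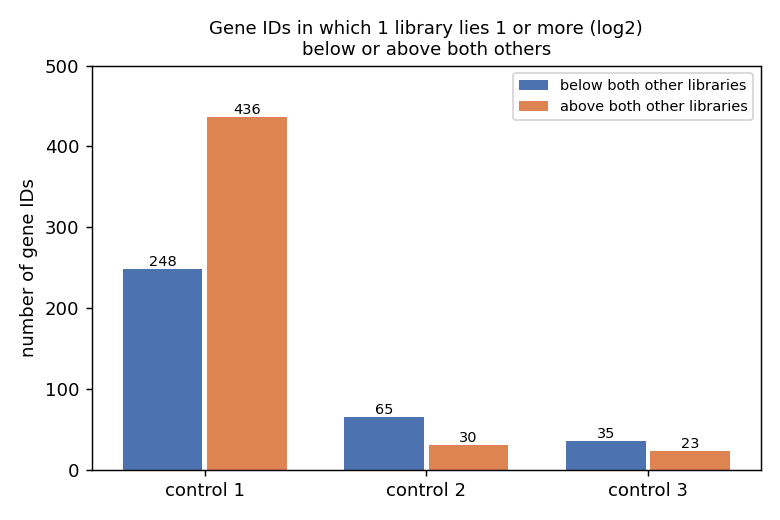
Number of gene IDs, of 3879 with a mean FPKM of at least 5, in which 1 fresh control library lay at least 1 on the log2(FPKM + 1) scale below (left bar) or above (right bar) both other libraries. Control 1 had 248 below and 436 above, while controls 2 and 3 had between 23 and 65.

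A large share of the FPKM of the fresh blastocyst came from the mitochondrial genome. Its 13 protein genes, all subunits of the respiratory chain and ATP synthase, held 43.9%, 37.6% and 38.3% of the summed FPKM, a mean of 39.9 ± 3.44% (SD, n = 3). All 13 were among the 20 highest IDs. The 50 highest IDs of a library together held 56.9%, 55.7% and 55.5% of its FPKM. In control 1, 21 IDs made up the first 50% of the FPKM, against 31 in each of the other libraries.

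The ATP synthase subunit ATP6 led every library, at 47346, 41155 and 39603. COX2, a core subunit of cytochrome oxidase, came next in all 3, at 42199.7, 36114 and 37215. The other cytochrome oxidase subunits, COX3 at 21558, 26738 and 24080.1 and COX1 at 18024, 21738 and 18701, were lower than COX2 in each library. CYTB, the mitochondrially encoded subunit of complex III, reached 20330.2, 13873 and 11737 and was highest in control 1. Among the complex I subunits ND4L led at 36075, 24345 and 30487, followed by ND4 at 20344, 12388 and 11900.2 and ND1 at 8620.0, 5556 and 5949. ND2 ran the other way, at 3127, 6064 and 5570.4, with control 1 lowest. ND3 was at 4097, 5924 and 5615, ND5 at 2551, 2969 and 3965 and ND6 at 3519.6, 3222 and 3464. ATP8, the smallest gene of the set, was at 14594, 20072 and 20288. ATP8 overlaps ATP6 and ND4L overlaps ND4, and how the authors' counting split such fragments is not stated. ND6 lies on the strand opposite to the others, and whether strand was used is not stated either.

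Within this set control 1 was lowest in 6 genes and highest in 7 in the deposited FPKM, a split that moved with the scaling. In none of the 13 did it lie a log2 of 1 from both others. Over all IDs with a mean FPKM of at least 5 it lay that far below both in 6.39% and above both in 11.2%. No steadiness of the set is read from so few genes. The ratio of COX2 to the nuclear cytochrome oxidase subunit COX4I1, which does not depend on library scaling, was 62.5, 63.1 and 59.2.

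Outside the mitochondrial genome the named gene with the highest level was KRT8, a type II keratin of simple epithelia, at 6343, 10329 and 8634. Its partner KRT18, a type I keratin that forms filaments with it, was at 3846, 4806 and 4527. The 2 keratins averaged 8435 ± 2000.5 and 4393 ± 494 FPKM (mean ± SD, n = 3), and KRT8 exceeded KRT18 1.65-, 2.15- and 1.91-fold. Without control 1 the means were 9481 for KRT8 and 4667 for KRT18. UBB, a polyubiquitin gene, lay between them at 5258, 4959 and 5766. Next came FTL, the ferritin light chain that stores iron, at 3674, 3739.8 and 3499, with the smallest SD of these 4 genes, 124.

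The rest of the 25 highest named genes lay closer together. The libraries' ranges did not overlap between neighbours for the first 4 of 24 neighbouring pairs, that is from KRT8 down to TMSB10. Below TMSB10, a sequesterer of actin monomers at 2698, 3333 and 3499, every neighbouring pair overlapped. The order was the same in all 3 libraries for 7 of the 24 pairs. Of the 25, 6 encoded ribosomal proteins, led by RPLP1 at 1593, 2286 and 2048 and RPS26 at 1374, 2000.2 and 1962. Others served lipid and lysosome functions. NPC2, a cholesterol carrier of the lysosome, was at 1749, 2784 and 2939, and GM2A, the activator that presents gangliosides to a lysosomal enzyme, at 1097, 2263 and 1333. FABP3, a fatty acid carrier, was at 2309, 2076 and 1892. FOLR1, a folate receptor at the cell surface, reached 1188, 1508 and 1997, and the tetraspanin CD9 1020.0, 2084 and 2255. UPP1, which cleaves uridine, was at 989, 1359 and 2054, and the calmodulin gene CALM2 at 1248, 1512 and 1211.

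Of these 25 genes, 17 ranged over less than 1 log2 among the libraries. The cytosolic actin ACTG1 and the lysosomal protease CTSD were the widest. ACTG1 was at 909.7, 3638 and 2802, and CTSD at 316, 4602 and 3540.3, in both cases with control 1 far below the other libraries. Without control 1, CTSD averaged 4071 FPKM, against 2820 with it. BEX4 was at 1116, 2978 and 2564 with the same library lowest. Of the 100 highest IDs outside the mitochondrial genome, 24 had no symbol. The top one, ENSSSCG00000014540, reached 8673, 12737 and 11443 FPKM and exceeded KRT8 in each library.

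**Figure D2:**
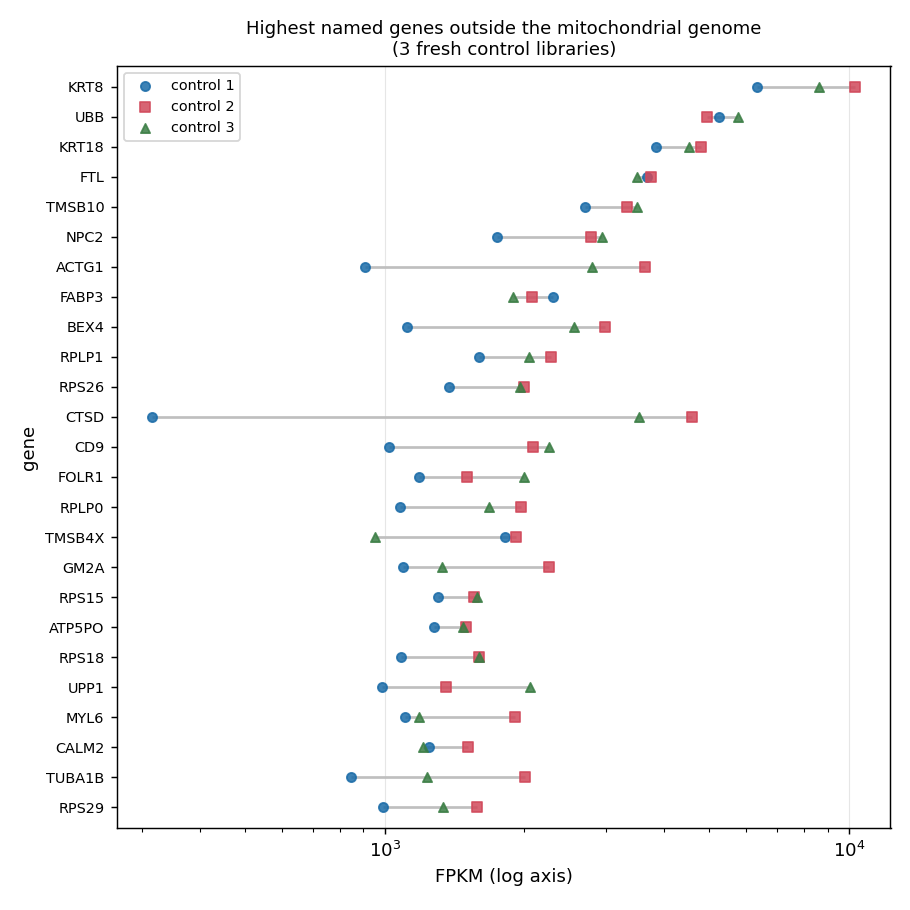
FPKM (log axis) of the 25 named genes with the highest mean log2(FPKM + 1) outside the mitochondrial genome, in controls 1, 2 and 3 (1 point each, the grey line joining lowest and highest). KRT8, UBB, KRT18 and FTL lead, and CTSD and ACTG1 show the widest lines, with control 1 at the low end.

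The label of blastocyst was checked against lineage markers. The epithelial markers were present in all 3 libraries: KRT8 and KRT18 as above, GATA3, a trophectoderm transcription factor, at 21.1, 42.6 and 31.4, and CDX2, another such factor, at 3.71, 3.31 and 1.64. CDX2 was low, with GATA3 exceeding it 5.69-, 12.9- and 19.2-fold. Of the trophectoderm list 19 of 20 genes had an ID, and 16 of these reached an FPKM of 1 in every library. The median log2(FPKM + 1) of the list was 3.84 ± 0.34 (SD, n = 3). The same median over all IDs with a symbol was 0.53 ± 0.08.

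Among the trophectoderm transcription factors TFAP2C was at 23.3, 34.6 and 39.8, KLF5 at 22.97, 31.4 and 28.01 and GATA2 at 10.96, 35.4 and 29.4. Control 1 was the lowest library for each of these and for GATA3. TEAD4, the partner of YAP1 at the top of the trophectoderm programme in the mouse, was at 7.57, 9.81 and 17.7, and TFAP2A at 13.7, 9.42 and 6.21. Control 1 was lowest for TEAD4 and highest for TFAP2A. HAND1, a factor of later trophoblast, was at 0.0916, 0 and 0. PTGES, a prostaglandin E synthase, was the highest of the list's surface and secretory genes at 749, 1641 and 1689. The adaptor DAB2 was at 223, 251 and 223. KRT7, a further simple keratin, was at 1.68, 12.2 and 6.85. The intermediate filament gene VIM, typical of mesenchyme, was at 0.301, 1.15 and 0.543.

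The epiblast and inner cell mass list was lower. It had an ID for 14 of 20 genes, of which 8 reached an FPKM of 1 in every library, and its median log2(FPKM + 1) was 1.504 ± 0.22. POU5F1 and SOX2, core pluripotency factors, were among the 6 without a matched ID. NANOG was at 0.193, 0.658 and 0.952, PRDM14 at 0, 0.066 and 0.0566, and the ligand NODAL was listed at 0 in all libraries. The 5 matched RNA-binding and chromatin genes of this list had a median mean level of 7.63 FPKM, against 1.385 for its 6 transcription factors. They were not uniform, and 1 of the 5 stayed below an FPKM of 1 in every library. DPPA5 was at 106, 154 and 76.2 and DPPA2 at 109, 42.3 and 45.3, while LIN28A, which blocks let-7 maturation, was at 9.50, 6.44 and 6.96. DPPA2 was above both other libraries in control 1, by 1.25 on the log2 scale. ESRRB at 2.96, 2.60 and 3.06 and KLF17 at 1.82, 1.61 and 1.93 were low but present in every library.

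The hypoblast list had the lowest median of the 3 lineages, 0.32 ± 0.11, with 16 of 19 genes matched and 4 of them at an FPKM of 1 or more in every library. GATA6 was at 13.4, 18.6 and 10.2 and the lipoprotein APOE at 23.5, 6.73 and 31.01, with control 2 lowest for APOE. The later hypoblast factor GATA4 was at 0.152, 0.1 and 0.0398, and FOXA2 was listed at 0. The receptor PDGFRA reached 0.391, 0.584 and 0.299, the basement membrane collagen COL4A1 0.0483, 0.113 and 0.126 and the laminin LAMB1 3.53, 2.59 and 3.66. SOX17 had no matched ID. In these libraries fewer cells of a lineage and less RNA per cell of it cannot be told apart.

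**Figure D3:**
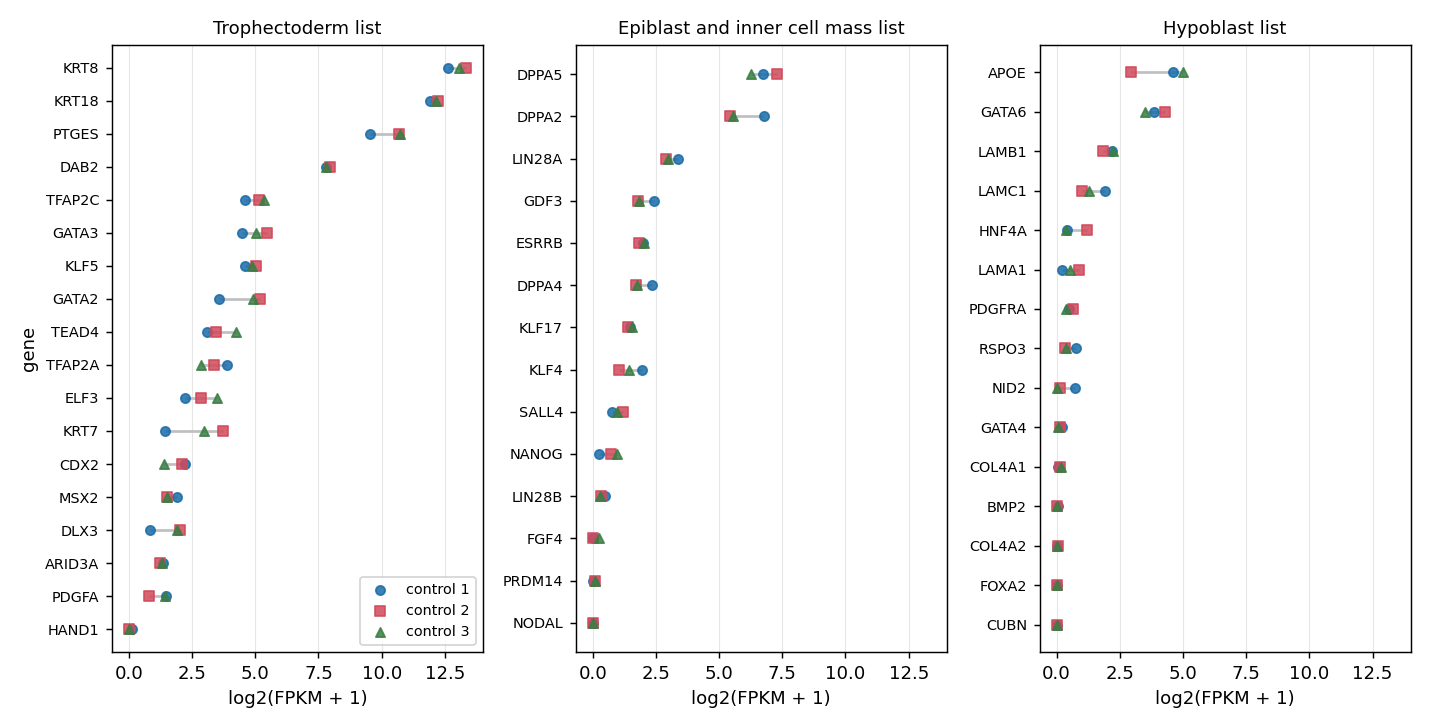
log2(FPKM + 1) of trophectoderm, epiblast and hypoblast list genes with a matched ID in controls 1, 2 and 3 (points; the grey line joins lowest and highest). The keratins stand near 12 to 13 in the trophectoderm panel, DPPA5 and DPPA2 lead the epiblast panel, and most hypoblast genes lie close to 0.

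Most markers of cells that do not belong to the blastocyst were at or near 0. The exceptions included LYZ and CD68 in control 1, COL1A1 in control 2 and GDF9 in all libraries. Of all 15347 IDs with a symbol, 8204 stayed below an FPKM of 1 in all libraries and 2853 were at 0 in all. Of the cumulus and granulosa list, 10 of 12 genes were matched, 6 were at 0 in all libraries and the summed FPKM was 0.239, 1.05 and 0.979. The fibroblast and endothelial list summed to 1.54, 8.91 and 1.53 over 10 matched genes, with COL1A1 at 0, 6.45 and 0 making up most of the value of control 2. Of these 10 genes, 7 stayed below an FPKM of 1 in all libraries. The leukocyte and erythroid list summed to 19.7, 1.55 and 1.58 over 9 matched genes. That of control 1 was mostly the lysozyme gene LYZ at 11.95, 0.321 and 0.173 and CD68 at 4.61, 0.431 and 1.19, while the leukocyte marker PTPRC and the erythroid ALAS2 were listed at 0. Of the 9 genes, 6 stayed below an FPKM of 1 in all libraries. Neither this count nor the 7 of 10 lies far from the share over all IDs with a symbol. No absence of these cells is read from either. In 3 of the 9 genes control 1 lay a log2 of 1 above both others. Control 1 lay so in 961 of all 31781 IDs. Of the maternal oocyte list, 10 of 11 matched genes stayed below an FPKM of 1 in all libraries. The exception was GDF9, an oocyte growth factor, at 6.26, 7.59 and 7.15. Its range over the libraries was 0.24 on the log2 scale. The zona protein ZP3 and the maternal factors NLRP5 and ZAR1 were listed at 0.

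Genes of epithelial junctions were broadly present. Of 32 junction and polarity genes 29 were matched and 25 reached an FPKM of 1 in every library. Among the listed tight junction genes claudins led: CLDN6 was at 159.9, 435 and 414, CLDN7 at 147, 367 and 391 and CLDN4 at 114, 209 and 217, whereas CLDN1 was at 0.455, 0 and 0.0562 and CLDN10 at 0.192, 0 and 0.0991. Control 1 was the lowest library for all of the first 3. CLDN8, a claudin that was not on the list and was picked out after its values were seen, was at 254, 705 and 694. F11R, an adhesion receptor of the tight junction, was at 27.7, 60.8 and 44.3. The adherens junction was represented by CDH1, which encodes E-cadherin, at 20.3, 27.7 and 35.1 and by its catenins CTNNA1 at 22.6, 14.9 and 18.7 and CTNNB1 at 20.6, 6.91 and 21.1. For CTNNB1, control 2 was the library that lay below both others. The connexin GJB5, at 65.1, 106 and 117, far exceeded GJA1, at 2.25, 0.0398 and 0. Among the desmosome genes JUP was at 19.5, 46.03 and 42.9 and DSG2 at 34.2, 14.1 and 12.8, with control 1 lowest for JUP and highest for DSG2. The polarity and cortex gene EZR, ezrin, was at 217, 269.5 and 265, and RHOA at 122, 114 and 106, each within a narrow range.

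Genes for filling the cavity were uneven. AQP3, a channel for water and glycerol, was at 133, 799 and 406, while 5 of the 7 matched aquaporins were below an FPKM of 1 in every library. Of all 15347 IDs with a symbol, 8204 stayed below it. AQP4, AQP5 and AQP8 were listed at 0. Control 1 lay below both others for AQP3, the gap to the nearer being 1.60 on the log2 scale. ATP1B1, the beta subunit of the sodium pump, was at 6.98, 0.723 and 1.26 and was highest in control 1. All 5 genes for sodium entry were below an FPKM of 1 in every library, with SCNN1A at 0.839, 0.231 and 0.194. Of 19 matched integrin and matrix genes 5 reached an FPKM of 1 in every library, beside 5390 of all 15347 IDs with a symbol. ITGB1, the common beta chain, led at 44.03, 23.8 and 28.4, and SPP1, osteopontin, was listed at 0.

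All 23 matched cytoskeleton genes reached an FPKM of 1 in every library, and 10 reached 100. Besides ACTG1, TMSB10 was followed by TMSB4X at 1815, 1916 and 954 and the myosin light chain MYL6 at 1104, 1906 and 1188. ACTG1 exceeded ACTB, at 413, 589.5 and 407, 2.21-, 6.17- and 6.88-fold. Actin genes are near copies of each other, so fragments can be shared among them, and the way they were assigned is not stated. The same holds for the tubulins, where TUBA1B was at 848, 2007 and 1233, TUBA1A at 239, 553 and 464 and TUBB at 172, 195 and 159.

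Nuclear genes of oxidative phosphorylation matched the mitochondrial ones in breadth but not in level. Of 64 listed, 55 had an ID, 54 reached an FPKM of 1 in every library and 45 reached 100, with a median mean level of 251 FPKM. Complex IV subunits had the highest median of the 5 complexes, 625 FPKM, led by COX8A at 691, 1244 and 1045. Complex V was led by ATP5PO at 1275, 1496 and 1473 and complex III by UQCRQ at 708, 979 and 975. SDHD of complex II was at 501, 653 and 641, and NDUFA4 at 686, 944 and 857. COX6A1 was listed at 0 in all libraries, although every cell uses this subunit or its muscle form, and a value of exactly 0 in the table can be a failed estimate. In this set 54 genes had a mean FPKM of at least 5. Control 1 lay a log2 of 1 below both others in 1 of them, against 6.39% of IDs. It lay that far above both in none, against 11.2%. NDUFV2, a complex I subunit, was at 162.6, 162.6 and 162.9 and was the steadiest of all named genes with a mean of at least 20. The adenine nucleotide carrier SLC25A5 was at 758, 1148 and 841, against 8.72, 5.30 and 7.32 for its muscle form SLC25A4.

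Of the list for glucose entry, glycolysis and the pentose phosphate path, 19 of 34 matched genes reached an FPKM of 1 in every library. GAPDH was at 228, 789 and 330.0, ALDOA at 205, 390.4 and 299, ENO1 at 162, 281 and 282 and TPI1 at 341, 193 and 185. GAPDH is often used as a reference gene, and here its libraries ranged over 1.78 on the log2 scale. Both hexokinases were low, HK1 at 2.39, 0.885 and 0.9 and HK2 at 1.45, 0.515 and 1.18. Lactate dehydrogenase A, LDHA, was at 59.1, 23.3 and 25.4 and LDHB at 22.2, 24.8 and 16.7, so that LDHA was the higher in 2 of 3 libraries. Of the glucose carriers SLC2A1 was at 37.5, 53.7 and 91.9 and SLC2A2 at 44.5, 40.4 and 27.4, while SLC2A4 was listed at 0. The non-oxidative enzymes of the pentose phosphate path, TKT at 277, 410.4 and 455 and TALDO1 at 319, 329 and 279, were high. PGD of the oxidative branch was at 42.4, 36.8 and 37.1.

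Lipid storage was represented by 2 abundant genes. FABP3 was among the 25 highest, and PLIN2, which coats lipid droplets, was at 732, 950.1 and 794. PLIN3 was at 6.69, 6.14 and 6.34, PLIN4 was listed at 0 and the triglyceride synthase DGAT2 was at 0, 0.0335 and 0, against 2.70, 4.55 and 2.44 for DGAT1. The first steps of fatty acid synthesis were near 0, with FASN at 0.224, 0.0553 and 0.109 and ACACA at 0.0164, 0.2 and 0.0829. Later steps were present, the desaturase SCD being at 24.5, 23.7 and 30.4 and the elongase ELOVL5 at 38.4, 28.2 and 12.6. SQLE of cholesterol synthesis was at 21.4, 34.99 and 56.8. Beta oxidation had 10 of 11 genes at an FPKM of 1 in every library, and its electron carriers ETFA at 200.3, 221 and 303 and ETFB at 181, 197 and 188 led. CPT1A, the gate for long-chain fatty acids, was at 0.291, 0.234 and 0.278.

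All 53 matched cytoplasmic ribosomal protein genes, of 79 listed, reached an FPKM of 1 in every library and 51 reached 100. They held 4.75%, 6.72% and 6.19% of the FPKM, a mean of 5.89 ± 1.02%, or 6.46% without control 1. Control 1 was the lowest library in 43 of the 53, against 29.8% of all IDs with a mean FPKM of at least 5. The 43 became 36, 42 and 30 with the non-mitochondrial total, TPM and quantile normalization, beside 23.0%, 27.5% and 40.6% of IDs. Control 1 lay a log2 of 1 below both others in 4 of the 53, beside 6.39% of all IDs. Its median difference from the others was -0.40 for the small subunit and -0.51 for the large, and after quantile normalization -0.02 and -0.17. RPS21 at 558, 558 and 556 and RPL27 at 845, 839 and 833 were among the steadiest genes. RPSA at 529, 1376 and 1136 and RPL10 at 624, 1789 and 1341 were 2 of these 4. Ribosomal protein genes have many processed copies, which can share fragments. Of the translation factors all 27 matched reached an FPKM of 1 in every library. The helicase EIF4A1 was at 585, 425 and 448, and the start-site factor EIF1 at 424, 495 and 527. The elongation factor EEF2 was at 48.7, 125 and 221, with control 1 lowest.

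Of the 29 genes of the proteasome, which breaks down proteins, with a mean FPKM of at least 5, control 1 was highest in 26 (89.7%), against 56.4% of all such IDs. In 2 of them, both of the 19S cap, it lay a log2 of 1 above both others, against 11.2% of IDs. In none of the 29 did it lie a log2 of 1 below both, against 6.39%. Of the 20S core, PSMB7 was at 359, 274 and 262 and PSMB1 at 252, 204 and 196. Of the 19S cap, PSMD8 was at 165, 90.5 and 80.3 and PSMC1 at 120.4, 55.01 and 47.7. The number of 19S genes a log2 of 1 above both others was 2 as deposited and between 1 and 5 under the other scalings. PSMB8, an immunoproteasome subunit, was listed at 0.

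Lysosome genes were high, with 23 of 26 matched genes at an FPKM of 1 in every library and 9 at 100. Besides NPC2 and CTSD, the alpha-galactosidase GLA was at 416, 494 and 542. The tetraspanin CD63 was at 314, 502 and 434. CTSZ was at 61.1, 182 and 195 and CTSL at 120.1, 85.5 and 74.8, with control 1 lowest for CTSZ and highest for CTSL. LAMP1, a main glycoprotein of the lysosomal membrane, was at 0.722, 0.531 and 0.155, while LAMP2 was at 98.3, 114 and 125. Of the autophagy genes GABARAP led at 294, 383 and 287, and SQSTM1, a cargo receptor, was at 29.9, 142 and 92.99.

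Control 1 lay far below the other libraries in the endoplasmic reticulum (ER) chaperones, which fold secreted and membrane proteins. All 12 listed had an ID, and control 1 was the lowest library in all 12. In all 10 with a mean FPKM of at least 5, control 1 lay a log2 of 1 below both others, against 6.39% of IDs. The disulfide isomerase PDIA3 was at 458, 2159.6 and 2117. HSP90B1, the ER form of HSP90, was at 158, 1151 and 1214, and HSPA5, which binds unfolded chains and is also called BiP, at 121, 500.2 and 983. PDIA6 was at 66.4, 399 and 457 and the lectin chaperone CALR at 95.96, 278 and 298. On the log2 scale controls 2 and 3 lay closer to each other than to control 1 in each of them. The median difference of control 1 from the others over the 10 was -2.23, against 0.28 over all IDs, and it lay between -2.42 and -2.06 under the other scalings, all 10 remaining below both others. Without control 1 the means were 2138 for PDIA3, 1182 for HSP90B1 and 742 for HSPA5, against 1578, 841 and 535 with it. The chaperones of the cytosol and the mitochondrion did not share this. HSPA8 was at 914, 1493 and 1208, HSP90AB1 at 219.6, 223 and 232 and HSPE1 at 1025, 758 and 961, and in none of 17 such genes was control 1 a log2 of 1 below both others.

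To see how far this reached, 2 further lists were drawn up after the values had been seen, so their counts describe these libraries only. Of 10 ER folding genes with a mean FPKM of at least 5, 7 lay a log2 of 1 lower in control 1 than in both others, against 6.39% of all IDs. MANF, a secreted ER factor, was at 70.3, 427 and 602, CRELD2 at 24.98, 218 and 267 and SDF2L1 at 26.03, 209 and 261. Of 18 genes for entry into the ER and glycosylation 8 did so. SSR2 of the translocon-associated complex was at 159.8, 721 and 469 and RPN1 of the oligosaccharyl transferase at 62.5, 244 and 284.

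The second list held genes known, mostly from mouse and human cells, to be under the transcription factor ATF4, which answers amino acid shortage and ER stress. ATF4 itself was at 21.3, 126 and 112. Of the 26 list members with a mean FPKM of at least 5, 16 lay a log2 of 1 lower in control 1 than in both others, against 6.39% of IDs, and none higher, against 11.2%. With the non-mitochondrial total or TPM, 1 of the 26 lay a log2 of 1 higher. CHAC1, which degrades glutathione, was at 1.24, 144 and 134, and PSAT1 of serine synthesis at 0.673, 124 and 86.1. These were also the 2 named genes farthest below the other libraries in control 1. The asparagine synthetase ASNS was at 42.7, 281 and 255, the amino acid carrier subunit SLC3A2 at 26.9, 117 and 110.4 and the seryl-tRNA ligase SARS1 at 37.1, 167 and 163. DDIT4, an inhibitor of mTOR signalling, was at 21.03, 132 and 107. The members were not uniform. MTHFD2 of the mitochondrial folate path was at 263, 166 and 142, ATF3 at 24.5, 12.3 and 9.77 and DDIT3, also called CHOP, at 57.9, 37.3 and 112. MTHFD2 and ATF3 were highest in control 1, and for DDIT3 control 2 was lowest. Control 1 also had the highest mitochondrial share, 43.9%, and the most IDs at an FPKM of 1, 7589. Its leukocyte and erythroid list summed to 19.7, against 1.55 and 1.58 in controls 2 and 3. In 3 of the list's 9 matched genes control 1 lay a log2 of 1 above both others, beside 961 of all 31781 IDs. PTPRC, CD3E, CD79A, CSF1R and ALAS2 of this list were at 0 in all libraries. The part of the mitochondrial share, the number of IDs and this list in these differences was not tested.

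**Figure D4:**
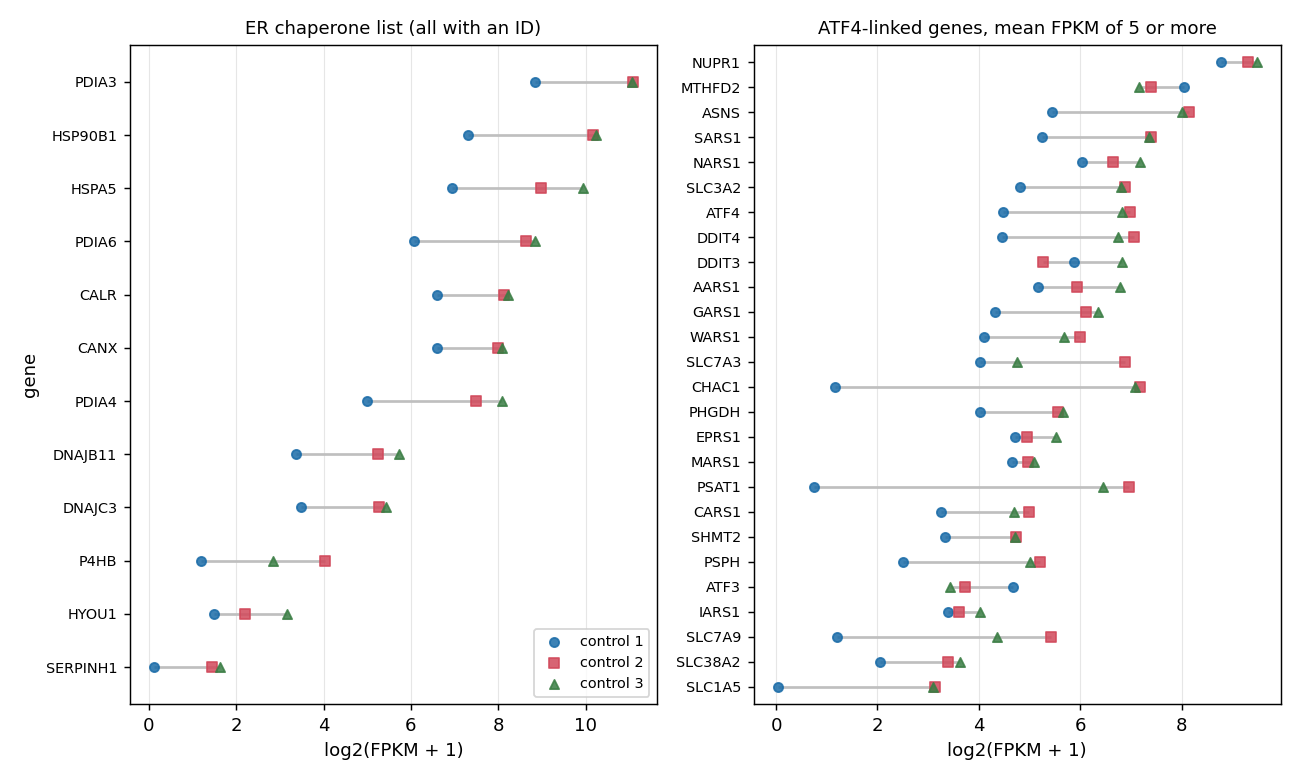
log2(FPKM + 1) in controls 1, 2 and 3 of the 12 ER chaperones (left) and of the 26 ATF4-linked genes with a mean FPKM of at least 5 (right); the grey line joins lowest and highest. Control 1 is the lowest library in all 12 on the left, and MTHFD2, ATF3 and DDIT3 are exceptions on the right.

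Most immediate early genes were low. Of these FOS at 0.362, 0.2 and 1.05, EGR1 at 0, 0.0423 and 0.142, FOSB at 0.0785, 0.0424 and 0 and MYC at 0.641, 0.461 and 0.578 stayed near or below an FPKM of 1, and JUN was at 9.42, 12.6 and 8.12. The cold-inducible RNA-binding gene RBM3 was at 186, 243 and 159.7 and CIRBP at 2.32, 7.18 and 5.54. XBP1, another regulator of the unfolded protein response, was at 60.7, 143 and 75.5, and HERPUD1, which aids disposal of ER proteins, at 43.9, 181 and 177. Control 1 was the lowest library for both. Of 5 interferon ligands the 3 with a matched ID were listed at 0, while IFND and IFNA1 had no matched ID. Among the 11 matched response genes 7 stayed below an FPKM of 1 in every library, beside 8204 of all 15347 IDs with a symbol. B2M, a subunit of class I histocompatibility molecules, was at 17.2, 0.702 and 5.13.

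Among the antioxidant genes the peroxiredoxins PRDX6 at 845, 906 and 803, PRDX5 at 265, 476 and 362 and PRDX3 at 411, 233 and 268 were the highest. GPX4, which reduces lipid peroxides, was at 73.5, 223 and 190.2. The mitochondrial dismutase SOD2 was at 109, 26.1 and 33.7 and the cytosolic SOD1 at 25.4, 9.79 and 9.37, both highest in control 1. MGST1, a membrane glutathione transferase, was at 5.49, 132 and 35.7, so that no 2 libraries were alike. NQO1, a target of the regulator NFE2L2 in other cells, was at 0.945, 0.0321 and 0, whereas NFE2L2 was at 105, 69.6 and 68.2.

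Apoptosis genes were mostly low, with a median mean level of 4.11 FPKM over 27 matched genes. Of the promoters of cell death DIABLO led at 75.6, 72.6 and 55.1, followed by BAD at 41.2, 27.2 and 48.3. CASP9 was at 0, 0.0182 and 0.0771. Of the genes that protect, CFLAR was steady at 21.5, 22.1 and 22.3, BCL2L1 was at 6.90, 12.8 and 16.9 and BCL2 was listed at 0. In none of the 11 genes of this list with a mean FPKM of at least 5 did control 1 lie a log2 of 1 from both others. Over all such IDs it lay that far below both in 6.39% and above both in 11.2%. No steadiness of the list is read from so few genes.

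Control 1 was the highest library in all 13 matched mitosis genes, and in 10 of them after quantile normalization. As deposited, control 1 was highest in all 7 of them with a mean FPKM of at least 5, against 56.4% of all such IDs. After quantile normalization it was highest in 44.01% of such IDs. Of the 7 with a mean FPKM of at least 5, 3 lay a log2 of 1 above both others, against 11.2% of IDs. UBE2C, which marks mitotic proteins for breakdown, was at 245, 145 and 201. The cyclin CCNB1 was at 100.5, 39.9 and 43.3 and its kinase CDK1 at 50.01, 13.01 and 13.3. Both were alike in controls 2 and 3, and the count stayed at 3 under the other scalings. Of the replication genes TYMS, which makes thymidylate, was at 88.5, 108 and 108, with control 1 lowest, and the sliding clamp PCNA at 49.7, 36.6 and 34.04. The inhibitor CDKN1A, p21, was at 158, 41.8 and 62.7 and the kinase CDK4 at 40.8, 2.27 and 3.43, each highest in control 1. E2F1 was listed at 0.

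The enzymes that copy and place DNA methylation were low. DNMT1, which maintains it, was at 1.34, 0.785 and 0.889, DNMT3A at 2.27, 1.81 and 1.01 and DNMT3B at 0.0071, 0.337 and 0.151. UHRF1, the cofactor of DNMT1, was at 0.212, 0.0057 and 0.0501, and ZFP57, which guards imprints, at 0.595, 0.774 and 0.947. TET1, which starts removal of methylation, was higher than any of them at 9.35, 16.1 and 21.8, and TET3 was at 0.0355, 0.0334 and 0. Among histone enzymes EED, a core subunit of the Polycomb complex that methylates H3K27, was at 76.02, 13.9 and 17.3, and the deacetylases HDAC2 and HDAC1 were at 39.99, 23.6 and 29.8 and 33.3, 22.1 and 21.3. EED lay above both others in control 1. The chromatin proteins HMGN2 at 788, 1354 and 752 and the histone variant H2AZ1 at 316, 275 and 207 were abundant. H2AX was listed at 0. Splicing genes were broadly present, 23 of 25 matched genes reaching an FPKM of 1 in every library, with SNRPE at 722, 447 and 469 and YBX1 at 370.0, 201 and 115.

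Imprinted genes were described in 2 lists, by the allele known to be active mostly in mouse or human. In embryos with 2 maternal genomes the question is whether genes of the paternal allele are at 0. Of the paternally expressed list 14 of 25 genes were matched. IGF2, SNRPN, NNAT and MAGEL2 were among those without a matched ID. Of the 14, 9 stayed below an FPKM of 1 in every library, beside 8204 of all 15347 IDs with a symbol. On the maternally expressed list 7 of 15 did so. At 0 in all libraries were 2 of the 14, beside 2853 of the 15347. No silencing is read from these counts. PEG3 was at 0.0148, 0 and 0, PEG10 at 0, 0.0349 and 0, PLAGL1 at 0, 0.0337 and 0 and SGCE at 0, 0.337 and 0.223, and both DLK1 and RTL1 were listed at 0. The other 5 reached an FPKM of 1 in every library. NDN was at 8.40, 14.8 and 12.9, MEST at 5.51, 4.09 and 4.92 and IMPACT at 3.82, 2.55 and 5.34, while BLCAP was at 56.8, 23.6 and 27.5 and HM13 at 3.34, 12.3 and 11.3. BLCAP, HM13 and IMPACT are not imprinted in every tissue or species. Of the maternally expressed list 15 of 19 genes were matched and 6 reached an FPKM of 1 in every library. H19 and MEG3 were among those without a matched ID. COMMD1 was at 23.9, 47.6 and 47.2, NAP1L4 at 7.02, 10.8 and 11.4, PPP1R9A at 5.19, 4.93 and 6.06 and UBE3A at 5.996, 3.51 and 3.22. PHLDA2, which limits placental growth in the mouse, was at 14.8, 1.26 and 2.002, above both others in control 1. IGF2R was at 0.873, 1.08 and 1.06, CDKN1C at 0.227, 0.399 and 0.0828, and ASCL2 and KCNQ1 were listed at 0.

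The median log2(FPKM + 1) of the maternally expressed list exceeded that of the paternally expressed list by -0.08, 0.73 and 0.80, a mean of 0.48 ± 0.49 (SD, n = 3). The sign was not the same in all libraries, and over the 3 the mean did not exceed their spread. An exact sign-flip test over 3 libraries could not go below p = 0.25, two-sided, so no test was made. Without control 1 the mean was 0.76 ± 0.05 (SD, n = 2). That value leaves out the only library with the opposite sign, so no difference between the lists is read from it. As means over the listed genes the difference was 0.07 ± 0.045 (SD, n = 3).

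Signals to the uterus centre on prostaglandins and steroids in the pig. PTGES was abundant, PTGS2, which makes the precursor of prostaglandins, was at 18.1, 56.4 and 100.3, and PTGES3 was at 29.95, 33.3 and 26.5. CYP17A1 of steroid synthesis was at 0.25, 0.276 and 0 and STAR at 0.207, 0 and 0.0479. CYP19A1 and HSD3B1 had no matched ID, so steroid synthesis is covered only in part. Of 15 matched ligands 2 reached an FPKM of 1 in every library, the interleukin IL6 at 57.3, 63.5 and 89.1 and the epidermal growth factor relative HBEGF at 7.58, 4.22 and 1.46. BMP4 was at 1.47, 0.771 and 1.28, while EGF and IGF1 were listed at 0. Of 17 matched receptors 10 were below an FPKM of 1 in every library, beside 8204 of all 15347 IDs with a symbol. The highest mean among the receptors was 3.92 FPKM. The IL6 co-receptor IL6ST was at 5.35, 3.36 and 3.06 and FGFR2 at 3.86, 1.07 and 1.63. Of the Hippo pathway, which sets trophectoderm fate in the mouse, WWTR1 was at 7, 4.97 and 6.23, AMOT at 9.47, 3.26 and 3.74 and YAP1 at 1.45, 7.25 and 2.86.

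Of 13 matched genes often used as references, 11 reached an FPKM of 1 in every library. PGK1 was at 124, 197 and 206, HPRT1 at 111, 77.9 and 83.8 and YWHAZ at 76.5, 58.4 and 51.3. None of these 3 ranged over 1 or more on the log2 scale. The exceptions among the 13 were B2M at 17.2, 0.702 and 5.13, with control 1 above and control 2 below both others by more than 1, and GAPDH at 228, 789 and 330.0, with control 2 above both others by 1.26.

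The spread of single genes was summarised over the 1799 IDs with a mean FPKM of at least 20. The median range over the 3 libraries was 0.73 on the log2(FPKM + 1) scale. In 570 IDs the range was under 0.5, in 566 it was at least 1 and in 113 (6.28%) at least 2. Of these 113, control 1 was the library farthest from the middle one in 95, control 2 in 10 and control 3 in 8. Between controls 2 and 3 alone, 13 IDs differed by at least 2. The median range was 0.75 for mean FPKM from 1 to 5, 0.83 from 5 to 20, 0.76 from 20 to 100, 0.66 from 100 to 1000 and 0.70 above. Between controls 2 and 3 alone, the median difference in the same classes was 0.29, 0.30, 0.25, 0.18 and 0.15.

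The genes with the widest ranges fell on both sides of control 1. LY6G6C, a small surface protein, was at 257, 6.17 and 0, and SERPINB2, an inhibitor of plasminogen activators, at 191, 2.32 and 2.10. The glutathione transferase GSTA4 was at 73.0, 0.334 and 4.59. These were high in control 1 and low in the others. The natriuretic peptide gene NPPB was at 88.1, 15.9 and 6.74 and the activin antagonist FST at 57.4, 4.02 and 9.07, again with control 1 highest. ACTA1, the skeletal muscle actin, was at 0.796, 108 and 36.6, and SDCBP, syntenin, at 2.62, 40.0 and 84.0. Control 1 was the lowest library for both. APOC3, an apolipoprotein, was at 125, 9.82 and 98.2, so that control 2 was the one apart. ARG1, an arginase, was at 151, 134 and 26.2, with control 3 apart. Steady genes outside the respiratory chain and the ribosome included the mitochondrial import subunit TIMM17A at 40.7, 40.1 and 40.4 and the adaptor YWHAB at 77.6, 76.2 and 75.2.

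**Figure D5:**
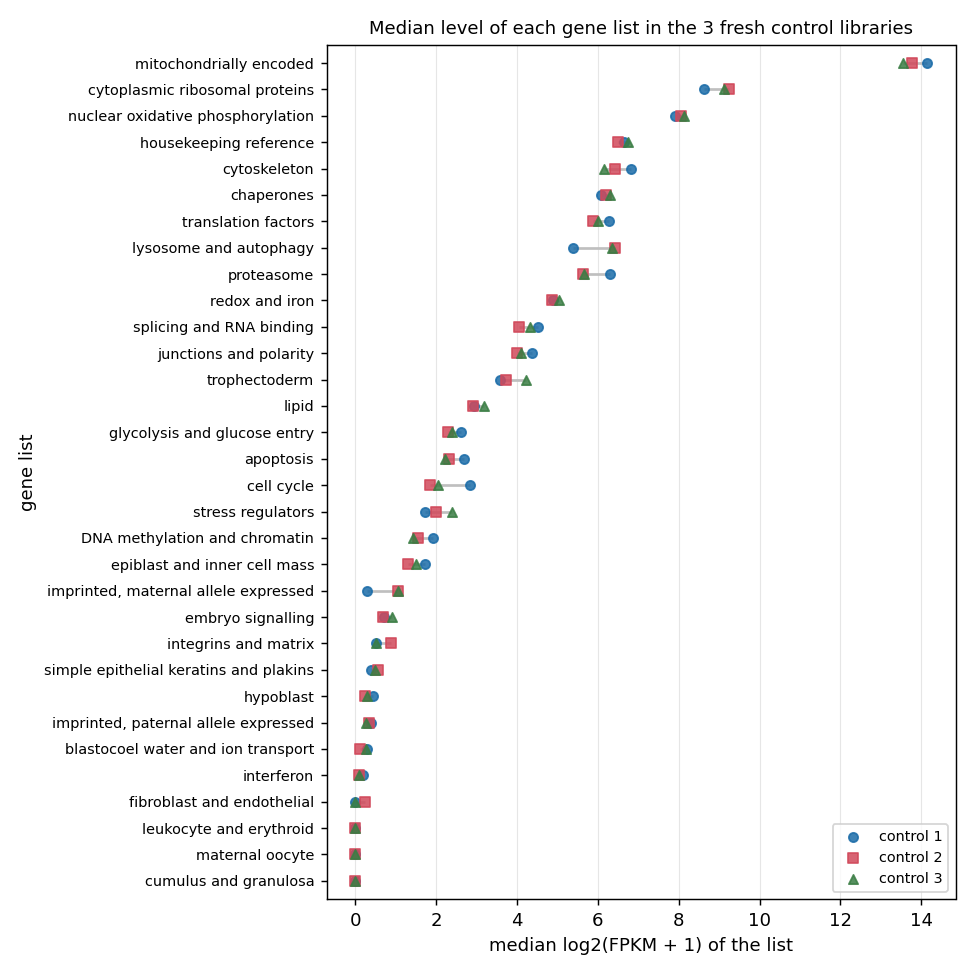
Median log2(FPKM + 1) of each gene list over its genes with a matched ID in controls 1, 2 and 3 (points; the grey line joins lowest and highest). The mitochondrially encoded genes lie near 14 and the ribosomal proteins near 9, and the markers of cumulus, oocyte, blood and connective tissue cells lie close to 0.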

How the data were processed

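The 3 fresh control libraries of pig blastocysts were analysed from the deposited table of FPKM values, fragments scaled to gene length and library size, made by the authors for 31781 gene IDs in 11 libraries. The 8 vitrified columns were not used and 0 columns lacked a sample. Cufflinks 2.2.1, TopHat2 2.0.13, FastQC and DESeq2 appear in the submitters' processing notes with no role given, and the genome build is not given in the sources used here. Whole fragments could not be recovered from the low values, so depth is unknown and the number of libraries limits the precision. Symbols came from an Ensembl ID table and matched 15347 IDs. Values were used as log2(FPKM + 1) with Python 3.11.15, pandas 2.3.3 and numpy 2.4.6, and the counting steps were tested on simulated data. All results are descriptions: with 1 group there is no test. The members and gene lists were chosen with earlier results of these data known.

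Genes were named by a rule: the 25 highest named genes outside the mitochondrial genome, the 13 mitochondrial genes, the 4 highest members of each role of a list, members below an FPKM of 1 in all libraries, and, at a mean FPKM of at least 20, the 15 widest, the 15 narrowest and the 10 farthest on each side of each library. A set of lineage factors was added to the rule. Other genes in the text, the 2 lists of ER entry and ATF4-linked genes and the scalings of the control 1 differences were chosen after values were seen. Alternatives were another pseudocount, other thresholds, other scalings, list means, and leaving out each library. Imprinting status and gene roles are textbook knowledge, often from mouse or human. Some withheld genes are not reported here, but they count in the totals of their lists.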

Additional observations from a re-analysis of the deposited data

How the results depend on the processing

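Of 67 alternative values 51 stayed within the spread of the libraries or within 1.5 times a count, and 16 moved. The number of IDs at the detection threshold in all libraries was 6051 at an FPKM of 1, 10127 at 0.1 and 3125 at 5. Wide-range IDs numbered 113 at a mean FPKM of at least 20, 240 at 5 and 65 at 50. Leaving out each library in turn gave 10 to 84 such IDs, 10 being without control 1, and mean agreement between libraries of 0.908 to 0.971, against 0.934. Here the IDs were chosen again from the libraries kept. The values without control 1 therefore differ from the 13 IDs and the r of 0.975 given above for controls 2 and 3. With a pseudocount of 0.1 agreement was 0.895, the epiblast median 0.94, the hypoblast median -1.57 and the imprinted difference 1.18. As TPM the trophectoderm, epiblast and hypoblast medians were 4.61, 2.08 and 0.52, and as means over the listed genes 4.80, 1.91 and 0.91. The order of the 3 lineages was kept in each of these. The imprinted difference as means over the listed genes was 0.07. Means over fewer libraries, other constants and other totals shift these values by construction. No paired analysis was possible because only 1 group was described. Depth is unknown, so low levels cannot be told from 0.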

Other observations

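Unannotated IDs held some of the widest values. ENSSSCG00000048856 was at 52.7, 49.8 and 2857 FPKM in controls 1, 2 and 3, and ENSSSCG00000054645 at 425, 5.31 and 2.26.

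Of the listed genes, 44 were at 0 in all 3 fresh libraries. Among them COX6A1, H2AX and E2F1 are used by most dividing cells, and whether their IDs carry the fragments was not tested. A further 137 of 965 listed symbols had no matched ID. They include the abundant housekeeping genes EEF1A1, PPIA and FTH1 and the pluripotency factor POU5F1.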
